A study of Mus musculus with 2 samples.

Results

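The tumour necrosis factor (TNF) and TNF receptor superfamilies, with the TRAF adaptors, were described in P5424, a mouse T-cell line. Members were the array's non-control probes whose gene name is Tnfrsf or Tnfsf followed by a number and an optional letter, or one of the family genes with a name of its own (Tnf, Lta, Ltb, Ltbr, Cd27, Cd70, Cd40, Cd40lg, Fas, Fasl, Eda, Edar, Eda2r, Ngfr, Traf1 to Traf7). The names gave 51 genes of the 17947 protein-coding genes on the array, read by 68 of 55681 probes. They comprise 27 receptors, 17 ligands and 7 TRAFs. The study profiled 2 samples, replicate 1 and replicate 2, on 1-colour Agilent arrays with 60-base probes. Both are untreated P5424 cells with Rag2 and P53 knocked out, cultured in RPMI1640 to which 2-mercaptoethanol (0.1 mM) and fetal bovine serum (10%) were added. There is 1 group and no control condition, so nothing was tested between conditions. No label says that the replicates are separate cultures, so their spread may be technical, and precision is limited by there being 2 arrays.

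Ligands of the TNF superfamily are mostly membrane proteins that act as trimers, and their receptors carry cysteine-rich repeats outside the cell. Some receptors end in a death domain, which recruits adaptors such as TRADD and FADD towards caspase 8. Others bind TRAF proteins, which lead to the TAK1 and IKK kinases and to NF-kB. In T cells several of these receptors, among them CD27, OX40, 4-1BB and GITR, are known as costimulatory receptors.

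Well above background were 23649 probes of replicate 1 (42.5%) and 22923 of replicate 2 (41.2%). Over 308 negative control spots the median reading was 6.55 intensity units for replicate 1 and 7.50 for replicate 2. Their highest spot read 15.1 on replicate 1 and 101 on replicate 2, where the second highest read 17.6. The 2 Rag2 probes read 2132 and 89.2 intensity units on replicate 1 and 2086 and 88.3 on replicate 2, and the Trp53 probe read 746 and 996, all well above background. Which part of each gene is deleted is not in the labels, so these probes check nothing. All 13 T-cell markers were detected, among them Cd3e, Lck, Cd4 and Cd8a. Of markers of other cells, 1 of 5 B-cell (Cd79a), 4 of 6 myeloid (Csf1r, Cd14, Itgam, Cd68), 1 of 4 natural killer (Nkg7), 3 of 6 stromal and endothelial (Pdgfrb, Pecam1, Kdr) and 0 of 4 epithelial genes were detected. Ms4a1, Lyz2, Ncr1 and Epcam were not well above background. The part of other cells in the results on the family was not tested.

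A gene was called detected when at least 1 of its probes was marked well above background by the scanner software on both arrays. By this rule 29 of the 51 members were detected (56.9%), against 54.0% of all protein-coding genes. A further 2 members were detected on 1 array and 20 on neither. The classes differed in their counts: 15 of 27 receptors (55.6%), 7 of 17 ligands (41.2%) and all 7 TRAFs were detected. Among genes with a single probe, 9 of 17 receptors, 6 of 15 ligands and 4 of 4 TRAFs were detected, together 19 of 36 members (52.8%) against 47.5% of all such genes. Counted by probe, 35 of 68 member probes were detected (51.5%), against 52.3% of the probes of all protein-coding genes. The family as a whole therefore lay near the background of the array by each count, and the order of receptors and ligands depended on the call: above the highest negative control, 10 of 27 receptors and 7 of 17 ligands remained.

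**Figure D1:**
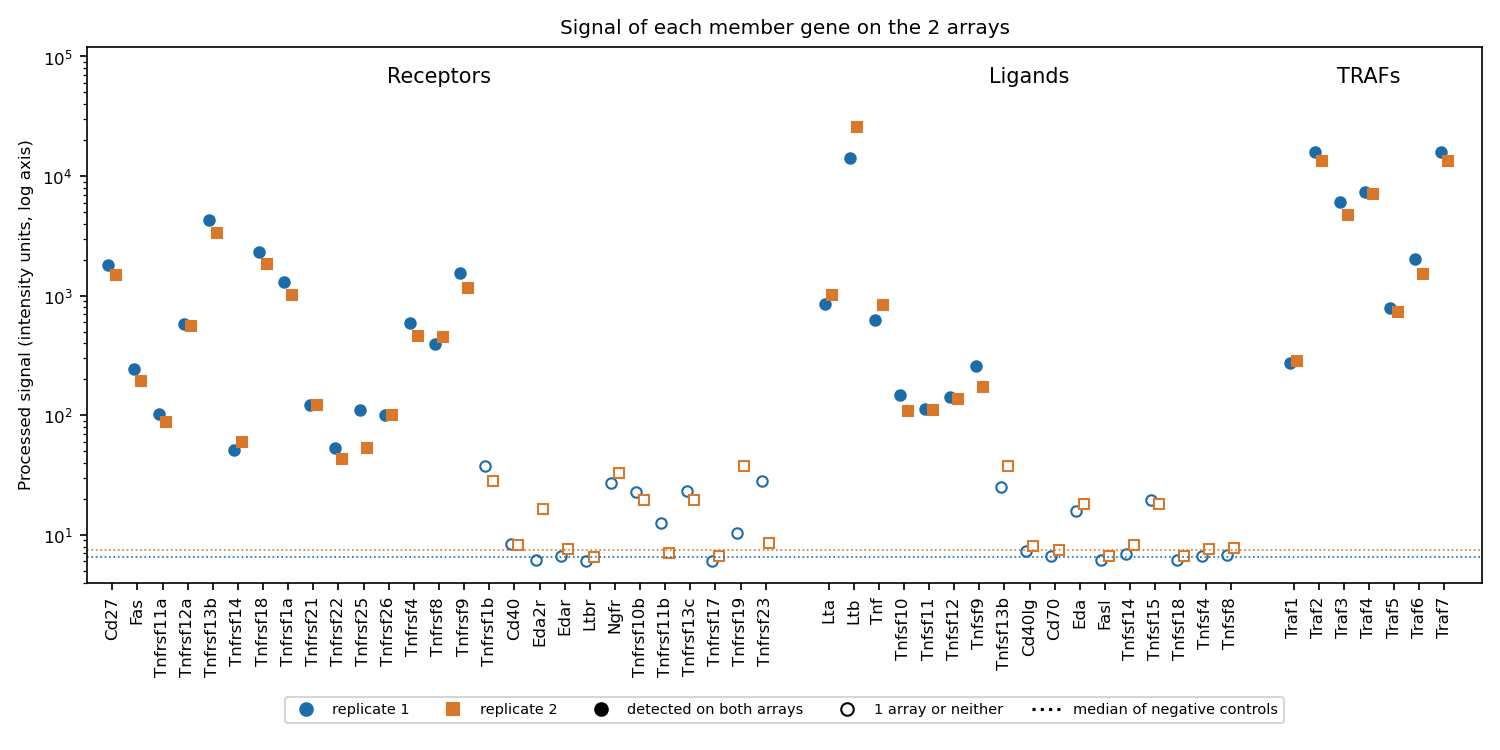
Processed signal of the 51 member genes on replicate 1 (circles) and replicate 2 (squares), in intensity units on a log axis, by class; filled symbols are genes detected on both arrays, and dotted lines are the medians of the negative controls (6.55 and 7.50). All 7 TRAFs are filled, and 9 of 17 ligands lie at 19.5 units or below on replicate 1.

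Of the 7 receptors with a death domain, 4 were detected. Values in parentheses below are log2 signals relative to the array's 75th percentile, as mean ± SD over the 2 arrays (n = 2). Tnfrsf1a, the main signalling receptor of TNF, read 1313 intensity units on replicate 1 and 1023 on replicate 2 (1.90 ± 0.17). Fas, which starts apoptosis on binding Fas ligand, read 244 and 195 units (-0.51 ± 0.15). These receptors were found by every spot of their probes, which number 10 for the Tnfrsf1a probe and 2 for the Fas probe. Tnfrsf21, or death receptor 6, read 122 and 121 units (-1.35 ± 0.07). Tnfrsf25, or death receptor 3, which costimulates T cells, read 111 and 53.7 units (-2.01 ± 0.65). The Tnfrsf25 value had the widest spread of the detected receptors. Tnfrsf10b, the mouse death receptor for TRAIL, Edar, the ectodysplasin receptor, and Ngfr, the p75 neurotrophin receptor, were not well above background. Ngfr has 10 spots, of which 0 were well above background on replicate 1 and 4 on replicate 2.

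Of 16 TRAF-binding receptors, 9 were detected, 1 was found on 1 array and 6 on neither. Cd27, which binds CD70, read 1793 units on replicate 1 and 1502 on replicate 2 (2.40 ± 0.10). Tnfrsf18, or GITR, read 2337 and 1850 units (2.74 ± 0.15). Tnfrsf9, or 4-1BB, read 1559 and 1152 units (2.11 ± 0.22). All 3 were lower on replicate 2, by at most 0.32 log2 units. Tnfrsf4, or OX40, read 586 and 459 units (0.74 ± 0.17), and Tnfrsf8, or CD30, 398 and 453 (0.45 ± 0.21). Tnfrsf14, or HVEM, the receptor of LIGHT, read 51.3 and 60.2 units (-2.49 ± 0.25). On replicate 2 Tnfrsf14 and Tnfrsf25 lay below the highest negative control.

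Tnfrsf13b, or TACI, a receptor of BAFF known mostly from B cells, read 4274 units on replicate 1 and 3376 on replicate 2 (3.61 ± 0.16). This is the value of its brightest probe, at base 2451. Its probe at base 408 read 317 and 432 units, and that at base 175 was not detected, at 18.3 and 19.5 units. With the mean of detected probes the value was 1.93, so the level of this gene depended on the probe. The other receptors of BAFF, Tnfrsf13c and Tnfrsf17, were not well above background, nor were the B-cell markers Ms4a1 and Pax5, while Cd79a read 51.3 and 42.5 units and was detected. Tnfrsf12a, or Fn14, the TWEAK receptor, read 584 and 553 units (0.87 ± 0.03). Tnfrsf11a, or RANK, known from osteoclast precursors and thymic epithelium, read 102 and 87.3 units (-1.72 ± 0.08), under the brightest negative control of replicate 2. Tnfrsf1b, the second TNF receptor, which also costimulates T cells, was well above background on replicate 1 at 37.4 units and not on replicate 2, at 28.4 units. Cd40, Ltbr, Eda2r and Tnfrsf19 were not well above background on either array.

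Of 3 decoy receptors, 1 was detected. Tnfrsf22, a mouse decoy receptor for TRAIL, read 53.8 units on replicate 1 and 42.9 on replicate 2 (-2.69 ± 0.15), on replicate 2 under the brightest negative control. Tnfrsf23, another mouse TRAIL decoy, and Tnfrsf11b, or osteoprotegerin, the soluble decoy for RANK ligand, were not well above background. Tnfrsf26, a mouse receptor to which no role was assigned here, read 101 and 100 units (-1.63 ± 0.08), the second also under that control. The 11 undetected receptors together ranged between 5.81 and 28.3 units on replicate 1 and between 6.60 and 37.7 units on replicate 2.

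The 7 detected ligands include all 3 genes of the TNF and lymphotoxin locus. Tnf, the founding inflammatory cytokine of the family, read 625 units on replicate 1 and 840 on replicate 2 (1.22 ± 0.39). Lta, whose product is secreted as a homotrimer or joins lymphotoxin beta, read 848 and 1023 units (1.58 ± 0.28). Ltb, the membrane partner of lymphotoxin alpha in lymphoid organ formation, read 14055 and 25505 units (5.93 ± 0.69). All of them were higher on replicate 2.

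Among the other detected ligands, Tnfsf9, the 4-1BB ligand, read 260 units on replicate 1 and 173 on replicate 2 (-0.55 ± 0.33). Tnfsf10, or TRAIL, read 149 and 109 units (-1.29 ± 0.23). Tnfsf11, or RANK ligand, by which thymocytes and other lymphoid cells act on thymic epithelium, read 112 and 111 units (-1.48 ± 0.07). These 3 ligands were above the highest negative control spot of both arrays. Tnfsf12, or TWEAK, read 143 and 137 units (-1.15 ± 0.04). Tnfsf13b, or BAFF, read 25.1 units on replicate 1 and 37.4 on replicate 2, and was well above background on replicate 2 alone. The 9 undetected ligands were Cd40lg, Cd70, Eda, Fasl, Tnfsf4, Tnfsf8, Tnfsf14, Tnfsf15 and Tnfsf18, with signals between 6.13 and 19.5 units on replicate 1 and between 6.70 and 18.2 on replicate 2. Most of these are ligands that activated T cells or antigen-presenting cells are known to display.

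Every TRAF was detected, and all 7 lay above the highest negative control spot of both arrays. Traf2, the adaptor that recruits the cIAP ubiquitin ligases, read 15971 units on replicate 1 and 13336 on replicate 2 (5.55 ± 0.10). Traf3, which restrains the noncanonical NF-kB kinase NIK, read 6076 and 4771 units (4.11 ± 0.16). Traf6, which also serves interleukin-1 and Toll-like receptors, read 2012 and 1523 units (2.49 ± 0.20). By these probes each was lower on replicate 2, by at most 0.28 log2 units, but another detected Traf2 probe was higher by 1.52 and another Traf6 probe was lower, at -0.51. Traf1, known as a target of NF-kB, read 272 and 283 units (-0.16 ± 0.12), and Traf5, a partner of TRAF2 at several receptors, read 787 and 724 units (1.28 ± 0.00). Traf4 read 7352 and 7056 units (4.53 ± 0.04), and Traf7, the most divergent TRAF, 15842 and 13353 units (5.55 ± 0.09). The spread of the TRAF genes was small, with a median SD of 0.10, beside 0.15 for receptors, 0.28 for ligands and 0.11 for all detected genes.

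Ligands were next set beside their known receptors. Of 28 textbook pairs 26 were analysed, since Tnfsf13, the ligand in the other 2, was not analysed here. Both sides were detected in 6 pairs, the receptor alone in 8, the ligand alone in 6 and neither in 6. Over the classes 41.2% of ligands and 55.6% of receptors were detected. How many pairs of each kind unrelated ligands and receptors would give was not counted, so these counts say nothing of matching. The pairs with both sides were Tnf with Tnfrsf1a, Lta with Tnfrsf1a, Tnfsf9 with Tnfrsf9, Tnfsf10 with Tnfrsf22, Tnfsf11 with Tnfrsf11a and Tnfsf12 with Tnfrsf12a. Receptors without their detected ligand were Cd27, Fas, Tnfrsf4, Tnfrsf8, Tnfrsf14, Tnfrsf18, Tnfrsf25 and Tnfrsf13b, whose ligand Tnfsf13b was found on 1 array. Ltb was detected and its receptor Ltbr was not, at 6.0 units on replicate 1 and 6.60 on replicate 2. For Tnfsf10 the decoy Tnfrsf22 was detected and the death receptor Tnfrsf10b was not. The pair counts moved with the call rule: both sides were detected in 14 pairs when a positive and significant signal sufficed, and in 3 when detection was required of all probes of each gene.

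**Figure D2:**
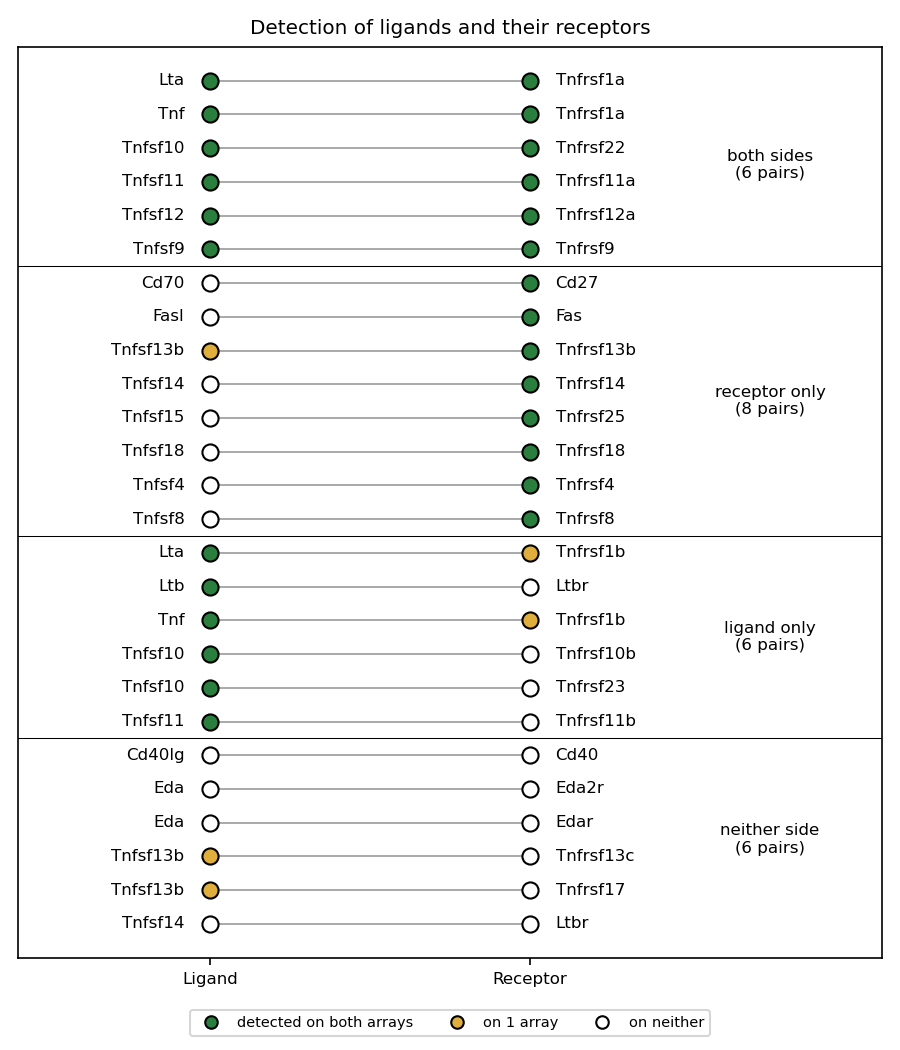
Detection of each ligand (left) and receptor (right) in the 26 pairs analysed, grouped by the side detected; filled green circles are genes detected on both arrays, amber circles on 1 array and open circles on neither. The receptor alone was detected in 8 pairs and both sides in 6.

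Neighbouring members were grouped by their probe positions on mouse build mm9, joining members less than 1 Mb apart, which gave 9 clusters with 23 genes. Of these 13 were detected (56.5%), near the 54.0% of all protein-coding genes, so the share says nothing of the clusters. The TNF and lymphotoxin locus, chr17:35333097-35340334, held Ltb, Tnf and Lta in 7.24 kb, and all 3 were detected. Tnfrsf4 and Tnfrsf18 lay 12.4 kb from end to end on chromosome 4 and were both detected, as were Tnfrsf12a and Traf7 on chromosome 17 (833 kb). Cd27 and Tnfrsf1a on chromosome 6 were detected and Ltbr, which lies between them within the same 129 kb, was not. On chromosome 17 Tnfsf9 was detected while Cd70 and Tnfsf14, in the same 82.2 kb, were not. Tnfrsf26 and Tnfrsf22 on chromosome 7 were detected and Tnfrsf23, in the same 57.8 kb, was not. The cluster of Tnfsf4, Tnfsf18 and Fasl on chromosome 1 (363 kb) had 0 of 3 genes detected, and that of Tnfsf15 and Tnfsf8 on chromosome 4 (106 kb) had 0 of 2. Tnfrsf8 was detected and its neighbour Tnfrsf1b, found on 1 array, was not. These clusters are given as positions, with no test of whether neighbours were detected together.

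Of the 15 members with more than 1 probe, 4 had all their probes detected, 6 had some and 5 had none. The 6 genes whose probes disagreed are shown by sequence, because for them the call depends on which probe is read. Each line gives the gene, the base of the listed transcript at which the probe starts and the mm9 span of the whole probe, then the first 30 of its 60 bases, 5′ to 3′ in the sense of the transcript, in lower case throughout.
Tnfrsf13b base 175, chr11:60954823-60954882: tcagctgtgactccacctgcacacagcacc
Tnfrsf13b base 408, chr11:60960405-60960464: atcttctgctgtttcttggtggccttggcc
Tnfrsf13b base 2451, chr11:60962770-60962829: cctggagaatatagcctggctccatttgca
Tnfrsf14 base 274, chr4:154300709-154300768: acatataccgcccatgcaaatggcctgagc
Tnfrsf14 base 833, chr4:154296319-154296378: ccgaggaggagacagcctccaactgaacaa
Tnfrsf22 base 368, chr7:150826673-150826732: accggaaatgccagtgccgaacaggtcttt
Tnfrsf22 base 1451, chr7:150823394-150823453: cctgaatcagtctgtaggtcatgtttaatc
Tnfrsf9 base 1023, chr4:150319101-150319160: cgcgcacctcatccaagtctcttctaacgc
Tnfrsf9 base 1504, chr4:150319582-150319641: catagaccaatggtccagttaaaataactg
Tnfsf12 base 848, chr11:69500528-69500587: tttgatgagggaaaggctgtctacctgaag
Tnfsf12 base 1034, chr11:69500342-69500401: tgggctcatcttaaggctgcccccttccta
Traf7 base 16, chr17:24664808-24664867: aagcagcacctagagttcctgaagtccgtg
Traf7 base 2642, chr17:24645828-24645887: ccaggggtcctttttactcaccttttctac
In Tnfrsf9 the probe at base 1504 was detected and that at base 1023 was not, at 23.2 units on replicate 1 and 21.6 on replicate 2. In Tnfrsf13b the probes at bases 408 and 2451 were detected and that at base 175 was not. In Traf7 the probe at base 2642 was detected and that at base 16 was not. In Tnfrsf14 and Tnfrsf22 the undetected probe was well above background on 1 array. For Tnfrsf14 it read 36.3 units on replicate 1 and 39.4 on replicate 2, where it passed. For Tnfrsf22 it read 55.1 units on replicate 1, where it passed, and 37.5 on replicate 2. The detected Tnfrsf22 probe read 53.8 and 42.9 units, so these calls lay near the threshold. In 5 of these 6 genes, Tnfrsf9, Tnfrsf13b, Tnfrsf14, Tnfsf12 and Traf7, the undetected probe has a lower start base than those detected, and Tnfrsf22 is the exception. The same share over all genes of the array whose probes disagree was not counted, so whether this is a trait of the family cannot be said. The Traf7 probes are assigned to different transcripts in the files, as are those of Tnfrsf13b, so positions on them are not on 1 scale. No member probe shares its sequence with a probe of another gene. Detected member probes had a median GC content of 45.0% and the others of 40.0%, both between 35.0% and 55.0%. Whether a probe lies in coding sequence or in a UTR was not analysed here.

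**Figure D3:**
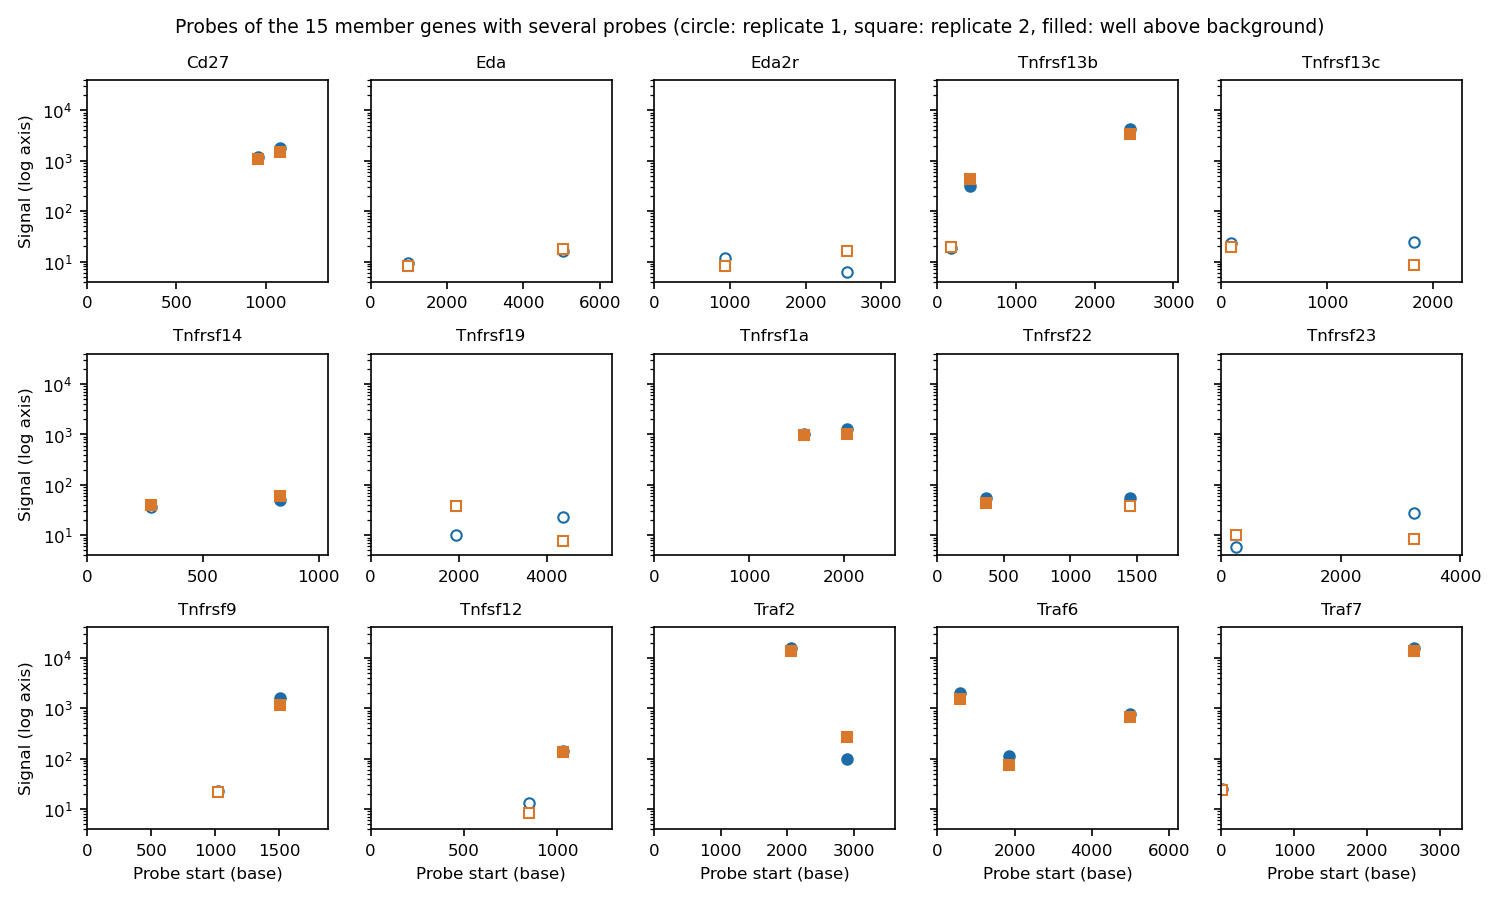
Processed signal (intensity units, log axis) of each probe of the 15 members with several probes against the base of the transcript at which it starts; circles are replicate 1, squares replicate 2, and filled symbols are well above background on that array. The probes of Tnfrsf9, Tnfrsf13b and Traf7 include both filled and open symbols.

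The arrays were compared within each detected gene, as replicate 2 minus replicate 1. The 29 detected members had a median difference of -0.13 log2 units and ranged between -0.92 and 0.98, with 12 of 29 higher on replicate 2. Over all 10221 detected genes the median was -0.03 and 43.9% were higher. With normexp background correction both medians were -0.04, and with the mean of detected probes they were -0.00 and -0.01. The gap between the medians therefore depended on the processing. None of the 29 passed 2-fold, against 0.802% of all detected genes. By class the median was -0.21 for receptors (5 of 15 higher on replicate 2), 0.11 for ligands (5 of 7) and -0.13 for TRAFs (2 of 7). The middle 95% of all detected genes lay between -0.55 and 0.62, and 2 members lay outside it. These were Ltb, which was 1.97-fold higher on replicate 2 (14055 units on replicate 1 and 25505 on replicate 2), and Tnfrsf25, which was 1.90-fold lower on replicate 2. The largest differences upwards on replicate 2 were those of Ltb (0.98), Tnf (0.54) and Lta (0.39), the 3 genes of the TNF and lymphotoxin locus, when each gene is read by its brightest detected probe. With the mean of detected probes Traf2 had 0.69, between Ltb and Tnf. Downwards they were those of Tnfrsf25 (-0.92), Tnfsf9 (-0.47) and, at -0.32, Tnfrsf9 and Tnfsf10.

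The array prints some probes in 10 copies, which gives the error of measurement within an array for 4 detected members. For Tnf the 10 spots read between 570 and 653 units on replicate 1 and between 788 and 909 on replicate 2, without overlap, and the scaled difference was 0.54 with a standard error over spots of 0.03. The Lta spots read between 794 and 935 units on replicate 1 and between 947 and 1180 on replicate 2, also without overlap (difference 0.39, standard error 0.04). Both genes thus differed between the arrays by more than their spots varied. The Tnfrsf1a spots went the other way, between 1207 and 1483 units on replicate 1 and between 903 and 1125 on replicate 2. Before scaling they did not overlap either, but relative to the 75th percentiles (324 and 299 units) their ends do. The scaled difference was -0.24 (standard error 0.04). Those of Traf4 gave 0.06 (standard error 0.02). Over the 94 detected probes with 10 spots the median spot SD was 0.06 on each array. The median absolute difference between the arrays was 0.16 over all detected genes. How many of the 94 probes had spots without overlap was not counted, so the lack of overlap sets no gene apart. Spots of 1 array share its RNA and its hybridisation, so this error says nothing of variation between cultures. The differences of Tnf, Lta and Ltb stayed positive in each of the 7 other ways of scaling, correcting or choosing probes. They lay between 0.32 and 0.58 for Tnf, 0.16 and 0.43 for Lta and 0.75 and 1.01 for Ltb. Keeping flagged spots or averaging detected probes could not change them, since each gene has a single probe without flagged spots. The percentile over detected probes and the array median shift all genes alike. All of these ways reuse the same 2 arrays, so they add no independent support.

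**Figure D4:**
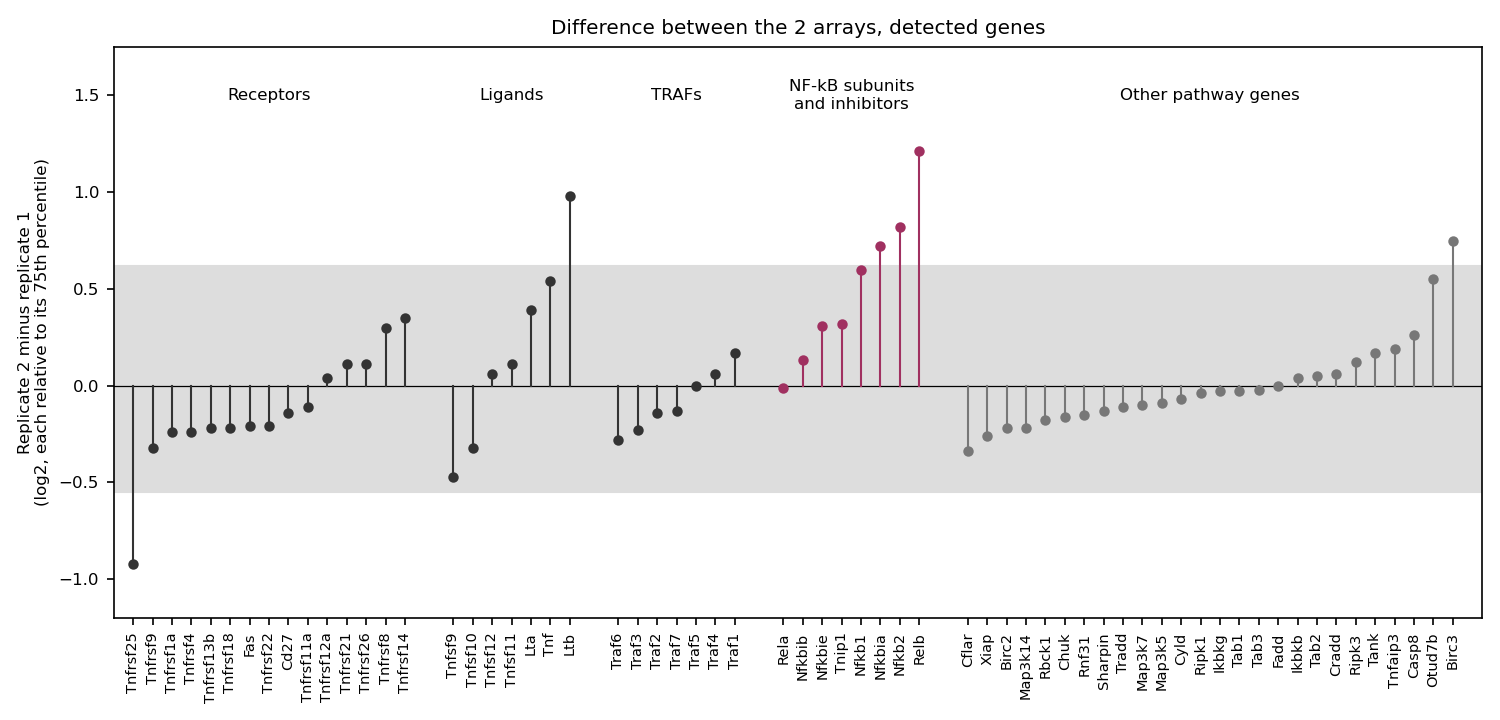
Difference between the arrays (replicate 2 minus replicate 1, log2 of signals scaled to the 75th percentile) for the detected members by class and for the detected genes of the pathway list; the grey band is the middle 95% of all detected genes, -0.55 to 0.62. Ltb (0.98) lies above the band and Tnfrsf25 (-0.92) below it, and 4 genes of the pathway list (Relb, Nfkb2, Birc3 and Nfkbia) lie above it.

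Downstream of the receptors, 34 of 37 genes of a list of adaptors, ubiquitin enzymes, kinases and NF-kB proteins were detected, against 54.0% of all protein-coding genes. Many of these genes are in use in most cell types. Of 9 death-domain adaptors and regulators of caspase 8, 7 were detected. Among them Tradd, which links TNFR1 to RIPK1 and TRAF2, read 6291 units on replicate 1 and 5384 on replicate 2 (4.23 ± 0.08), Fadd, the adaptor of caspase 8, 620 and 569 units (0.93 ± 0.00), and Ripk1 1241 and 1115 units (1.92 ± 0.03). Mlkl, the executor of necroptosis, and Edaradd, the adaptor of EDAR, were not well above background. Edaradd was thus absent from the detected genes along with Eda, Edar and Eda2r. All 10 ubiquitin ligases, deubiquitinases and their partners were detected, among them Birc2 at 769 and 609 units (1.14 ± 0.15), Birc3 at 136 and 211 units (-0.88 ± 0.53) and Xiap at 2964 and 2288 units (3.07 ± 0.18). All 9 TAK1 and IKK kinase genes were detected, among them Map3k7, which encodes TAK1, at 4261 and 3661 units (3.67 ± 0.07), Tab1 at 7397 and 6653 units (4.49 ± 0.02) and Tab2 at 1897 and 1814 units (2.58 ± 0.04). Of 9 NF-kB subunits and inhibitors 8 were detected, and Rel, which encodes c-Rel, was not well above background with its 1 probe.

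The difference between the arrays was not even over this list. Nfkb1, the p105 and p50 subunit, read 507 units on replicate 1 and 706 on replicate 2, a difference of 0.60, while its undetected probe at base 4056 read 54.5 and 22.3 units. Nfkb2, the p100 and p52 subunit, read 1398 and 2273 units, a difference of 0.82. Rela read 12464 and 11419 units, a difference of -0.01. In all, 7 of the 8 detected NF-kB subunits and inhibitors were higher on replicate 2, with a median difference of 0.46 log2 units, against 43.9% and -0.03 over all detected genes. The medians were -0.03 for the kinases (2 of 9 higher) and -0.10 for the ubiquitin enzymes (4 of 10 higher), and 3 of 7 adaptors were higher. The following were chosen after their values were seen: Relb, the partner of p52, read 1040 and 2214 units (1.21), and Nfkbia, the inhibitor IkB alpha, 10360 and 15741 units (0.72). The Relb probe at base 1942 gave 1.23, while that at base 785 read 69.7 and 64.0 units (1.0-fold). Ltb, Tnf and Lta were higher on the same array as these NF-kB genes. Tnfaip3, which encodes the deubiquitinase A20, differed by 0.19 and Traf1 by 0.17. Both turned negative when the array median was used for scaling (-0.04 and -0.05). Birc3 differed by 0.75 and stayed positive under every setting, between 0.50 and 0.79. The cause of the difference was not tested.

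Promoter windows of 300 bases, 250 before to 50 after the start site, came from a RefSeq table of build GRCm38.p6 and matched 41 of the 51 members. Those of the TNF and lymphotoxin locus are shown because its genes had the largest upward differences between the arrays by their brightest probes. Each is written 5′ to 3′ on the strand of its gene, and capitals mark matches to the 10-base NF-kB consensus, searched on both strands.
Ltb, chr17:35194257-35194556, plus strand: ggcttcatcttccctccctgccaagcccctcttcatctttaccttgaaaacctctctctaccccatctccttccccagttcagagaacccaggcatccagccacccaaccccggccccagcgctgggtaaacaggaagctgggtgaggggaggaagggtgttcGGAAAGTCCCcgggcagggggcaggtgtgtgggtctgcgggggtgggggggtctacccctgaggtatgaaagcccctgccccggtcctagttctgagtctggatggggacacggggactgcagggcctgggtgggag
Tnf, chr17:35201958-35202257, minus strand: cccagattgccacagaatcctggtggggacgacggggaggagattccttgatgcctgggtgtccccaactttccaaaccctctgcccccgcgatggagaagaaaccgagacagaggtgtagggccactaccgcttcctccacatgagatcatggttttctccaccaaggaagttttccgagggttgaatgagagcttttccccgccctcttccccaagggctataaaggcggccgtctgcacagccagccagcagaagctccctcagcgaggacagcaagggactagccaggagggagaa
Lta, chr17:35205302-35205601, minus strand: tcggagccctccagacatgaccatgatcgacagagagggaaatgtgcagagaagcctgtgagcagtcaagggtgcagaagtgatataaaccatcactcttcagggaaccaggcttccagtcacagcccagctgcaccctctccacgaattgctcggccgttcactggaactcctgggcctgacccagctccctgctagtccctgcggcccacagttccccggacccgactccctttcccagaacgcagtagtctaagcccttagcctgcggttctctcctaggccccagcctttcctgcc
The Ltb window holds 1 match, which begins 87 bases before the start site, and those of Tnf and Lta hold 0. Over the family, 3 of 41 windows held a match (7.32%), against 9.24% of the 14322 windows of protein-coding genes. They are those of Tnfrsf8 with 2 matches, Ltb with 1 and Traf3 with 1. All 3 genes were detected, as were 25 of the 41 members with a window. Over all protein-coding genes a match was held by 9.95% of the windows of detected genes and 8.38% of the others. A match is a description of the letters and not of a bound site.

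CpG dinucleotides in the same windows differed between the classes. The median was 19.0 for TRAFs, 12.0 for receptors and 7.0 for ligands. Over all protein-coding genes it was 21.0 for the 7846 detected genes and 5.0 for the 6476 others. Within the family the detected members had a median of 11.0 (25 genes) and the others of 9.0 (16 genes), and the ranges overlapped, 2 to 59 for the detected members and 3 to 23 for the others. Within classes this order was not seen: the medians were 11.0 for detected and 13.0 for other receptors, and 7.0 for both sets of ligands, while all TRAFs were detected. The detected members at the ends of that range are shown, chosen after their counts were seen, with CpG dinucleotides in capitals.
Traf3, chr12:111166120-111166419, plus strand: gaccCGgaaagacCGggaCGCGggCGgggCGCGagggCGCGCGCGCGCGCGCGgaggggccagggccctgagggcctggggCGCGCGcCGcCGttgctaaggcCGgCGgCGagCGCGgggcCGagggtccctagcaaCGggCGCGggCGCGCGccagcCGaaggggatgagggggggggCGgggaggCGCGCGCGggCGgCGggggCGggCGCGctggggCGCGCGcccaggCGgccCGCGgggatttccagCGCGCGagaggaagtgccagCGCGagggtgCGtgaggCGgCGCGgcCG
Tnfrsf14, chr4:154928028-154928327, minus strand: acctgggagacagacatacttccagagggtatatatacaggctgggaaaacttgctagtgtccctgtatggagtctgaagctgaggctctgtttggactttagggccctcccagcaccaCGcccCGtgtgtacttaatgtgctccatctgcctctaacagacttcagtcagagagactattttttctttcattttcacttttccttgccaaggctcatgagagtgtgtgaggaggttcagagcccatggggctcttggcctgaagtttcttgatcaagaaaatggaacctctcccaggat
The Traf3 window holds 59 CpG dinucleotides and that of Tnfrsf14 holds 2. Detected ligands had between 6 and 11 CpG dinucleotides, and detected TRAFs between 4, in Traf1, and 59. The windows of Ltbr and Ngfr, which were not detected, hold 23 each, above the median of detected genes.

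**Figure D5:**
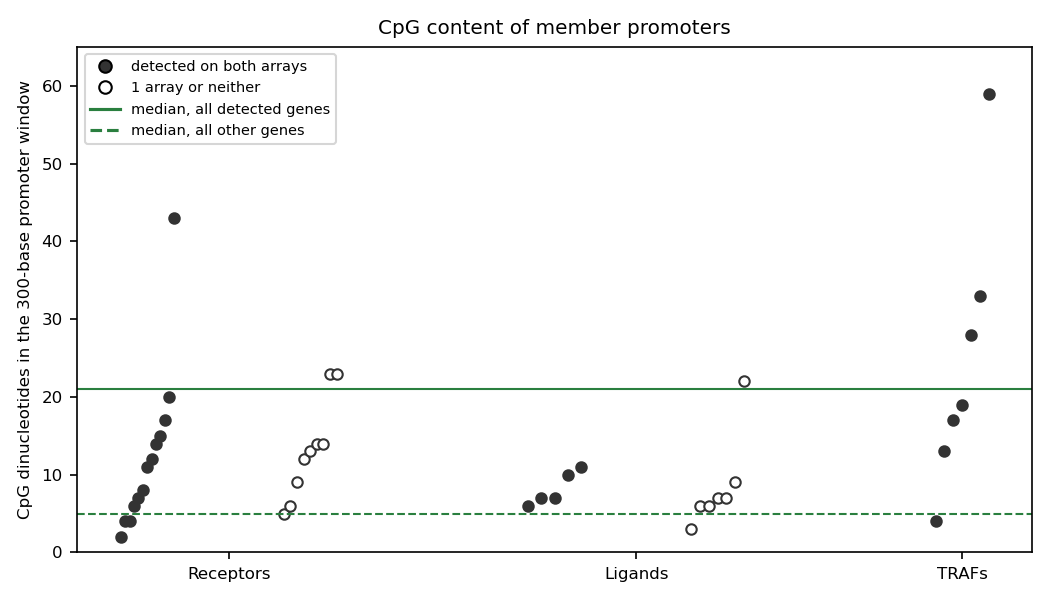
Number of CpG dinucleotides in the 300-base promoter window of the 41 members with a window, by class; filled circles are members detected on both arrays, open circles the others, and the lines are the medians over all protein-coding genes (21.0 detected, solid; 5.0 others, dashed). Detected ligands lie between 6 and 11, and Traf3 is highest at 59.

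Finally, the probes of a gene were compared for the difference between the arrays. Of the 35 detected member probes 1 passed 2-fold, the Traf2 probe at base 2899, which read 99.5 units on replicate 1 and 263 on replicate 2 (2.87-fold, 1.52 log2 units). The other Traf2 probe, at base 2054, differed by -0.14. The Tnfrsf13b probe at base 408 was higher on replicate 2 (317 and 432 units, 0.57) and that at base 2451 was lower (-0.22). The probes of Cd27 gave 0.00 and -0.14, those of Tnfrsf1a 0.09 and -0.24, and those of Traf6 -0.28, -0.51 and -0.07. Values of Traf2 and Tnfrsf13b therefore depended on the probe, and the sign of the difference also changed with some setting for Tnfrsf12a, Tnfrsf21, Tnfrsf26, Tnfsf11, Tnfsf12, Traf1, Traf4 and Traf5.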

How the data were processed

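Scanner files of 2 one-colour arrays were used. Per the file headers, the authors made their intensity values with Agilent Feature Extraction 10.5.1.1 (named in the submitters' processing notes too), which subtracted background and removed a spatial trend. A second table of log2 values was deposited by the authors for the same arrays. On the log2 scale its slope against the scanner values was 0.997 on replicate 1 and 1.01 on replicate 2, its column medians were both 5.18, and its centring and offset stay unknown. Spots marked non-uniform or outlying (182 on replicate 1, 186 on replicate 2) were left out, and 0 were saturated. Processed signals were taken as log2, averaged per probe and set relative to the 75th percentile of non-control probes on the same array (324 units on replicate 1, 299 on replicate 2). Probes with several spots needed 50% of them well above background. Each gene was represented by the brightest of its detected probes or, with none detected, by its brightest probe. Beyond that choice, probes of the same gene were set side by side to describe how calls and values depended on the probe. No level of 1 gene was ranked against that of another.

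Members and lists were chosen with earlier results of these data known. Every member is named. Of the pathway list, the first 3 detected genes of each role and each undetected gene are named, and of the differences between arrays the 3 largest in each direction. Probe positions are on mm9, per the file headers. Gene classes and promoter windows come from RefSeq tables of GRCm38.p6, using the first listed window of a gene. Tools were Python 3.11.15, pandas 2.3.3, numpy 2.4.6, matplotlib 3.10.9, R 4.3.3 and limma 3.58.1 (normexp, offset 50). The calculations were tested on simulated data.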

Additional observations from a re-analysis of the deposited data

How the results depend on the processing

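No paired analysis was possible because both arrays belong to 1 group, and the slide could not be a block because both lie on 1 slide. Of 62 alternative values of the counts and medians, 56 stayed within a set limit and 6 moved further. The limit was 1.5 times the reported count or, for the median, the median SD of all detected probes between the arrays (0.13). The tally scored 0 as reversed, but only the median difference has a sign, so the counts could not be scored so. The order of receptor and ligand shares was not scored, and it changed above the highest negative control. Within the limit for counts, detected receptors ranged between 10 and 22 against 15, and pairs with both sides detected reached 9 against 6. Pairs with both sides detected were 14 with a positive and significant signal and 3 with every probe required, against 6. Members over 2-fold apart were 1 with the percentile over detected probes (Ltb, 1.01), 1 with the array median (Tnfrsf25, -1.15) and 1 in the authors' deposited table (Tnfrsf25, -1.02), against 0. With normexp background correction the Tnfrsf25 difference was -0.37. The median difference of members was -0.36 with the array median, under which that of all detected genes was -0.26, and 5 of 29 members were then higher on replicate 2. With normexp it was -0.04, the same as over all detected genes, and with the mean of detected probes -0.00 against -0.01. Detected members were 31 when 1 array sufficed, 39 (76.5%) with a positive and significant signal against 69.2% of protein-coding genes, 23 (45.1%) with every probe required against 46.7%, and 24 (47.1%) above the highest negative control against 48.4%. The last of these lost Tnfrsf11a, Tnfrsf14, Tnfrsf22, Tnfrsf25 and Tnfrsf26. Without replicate 1 or without replicate 2 there were 30 detected members, which added Tnfsf13b or Tnfrsf1b.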
